A study of Mus musculus with 6 samples.

Results

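The Hedgehog pathway was followed through 8 genes in RNA-seq of mouse dorsal skin, namely the ligand gene Shh, the receptor genes Ptch1 and Hhip, the transducer Smo, the inhibitor Sufu and the transcription factor genes Gli1, Gli2 and Gli3. The 8 genes were chosen by name, and all 8 were found among the 21959 genes of the table. Both groups were full-thickness back skin of male C57BL/6 mice that were shaved in telogen, the resting phase of the hair cycle, at 7 weeks of age. Vehicle, a mixture of dipropylene glycol and distilled water, was applied to 3 mice and 3% rebamipide, a gastroprotective drug, to 3 mice, once a day on the shaved skin for 7 days. The mice formed a cohort of their own, 1 library was made per mouse from poly-A RNA, and the comparison asked how the transcripts of the pathway stood in treated against control skin on day 7. The libraries came from whole skin, so fewer cells of a type and less RNA per cell cannot be told apart.

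Shh is made by keratinocytes of the hair germ and of the growing hair matrix, and it is required for the follicle to grow down into the dermis at the onset of anagen, the growth phase. Without ligand the receptor PTCH1 holds SMO inactive. When SHH binds, SMO enters the primary cilium, SUFU releases the GLI proteins, GLI2 acts mainly as an activator, and GLI3, otherwise cut into a repressor, is left whole. Ptch1, Hhip and Gli1 are themselves transcribed in responding cells, which include the epithelium of the follicle and the dermal papilla, the mesenchymal cluster at its base.

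In rebamipide-treated skin 7 of the 8 genes had a negative fitted difference from vehicle and Sufu was at 0.03 on the log2 scale. Gli3 and Smo were the genes whose 3 rebamipide libraries all lay below the 3 vehicle libraries, with fitted log2 fold changes of -2.77 and -1.26. The other 6 genes overlapped between the groups. Shh and Hhip varied most from mouse to mouse, and Shh had 0 counts in 2 of the 3 rebamipide libraries. At an adjusted p-value under 0.05 edgeR's quasi-likelihood test called 0 of the 8 genes, with Gli3 and Smo at an unadjusted p-value under 0.05, and DESeq2 called 2 of the 8, again Gli3 and Smo.

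The libraries held 38676018 to 39915276 counts in the vehicle group and 32709801 to 34706852 in the rebamipide group, and they differed in what those counts were made of. Mitochondrial genes took 2.59% to 5.36% of the counts of vehicle libraries and 13.28% to 21.96% of those of rebamipide libraries. Levels are therefore given as normalised CPM, the library-scaled counts after correction with edgeR's TMM factors. On that scale the 14875 genes tested had a median log2 fold change of -0.17, which scaling by library totals alone moved to -0.78. A count of 0 allows up to 3 counts, or 0.06 to 0.117 normalised CPM per library, for counting error only. The third rebamipide library, labelled skin like the others, stood apart in its keratinocyte genes. Krt14, a keratin of basal keratinocytes, had 26099, 64371 and 59493 counts in the vehicle libraries and 10954, 6102 and 0 in the rebamipide libraries. Krt71, a keratin of the inner root sheath of growing follicles, had 329678, 150336 and 3332 counts in vehicle and 11284, 0 and 0 in rebamipide, so genes of growing follicles were present in the vehicle skin labelled as telogen at shaving.

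The promoters of Ptch1, Hhip and Gli2 are printed because Ptch1 and Hhip are textbook GLI targets and Gli2 is the gene whose levels followed Gli1 most closely. The windows run from 250 bases before to 50 bases after an annotated start in RefSeq on GRCm38.p6, 5′ to 3′ on the gene's strand, and 6 of the 8 genes had one, all but Shh and Gli1. They lie at chr13:63565686-63565985 on the minus strand for Ptch1, chr8:80057959-80058258 on the minus strand for Hhip and chr1:119053570-119053869 on the minus strand for Gli2. Capitals mark the only match found to a GLI motif, described after the sequences.
Ptch1: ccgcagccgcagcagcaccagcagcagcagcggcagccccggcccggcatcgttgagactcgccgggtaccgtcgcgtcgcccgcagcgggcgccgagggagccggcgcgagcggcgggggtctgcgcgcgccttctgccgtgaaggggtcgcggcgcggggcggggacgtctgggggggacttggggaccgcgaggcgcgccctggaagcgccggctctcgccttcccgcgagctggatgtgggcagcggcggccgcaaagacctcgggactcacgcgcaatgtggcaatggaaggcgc
Hhip: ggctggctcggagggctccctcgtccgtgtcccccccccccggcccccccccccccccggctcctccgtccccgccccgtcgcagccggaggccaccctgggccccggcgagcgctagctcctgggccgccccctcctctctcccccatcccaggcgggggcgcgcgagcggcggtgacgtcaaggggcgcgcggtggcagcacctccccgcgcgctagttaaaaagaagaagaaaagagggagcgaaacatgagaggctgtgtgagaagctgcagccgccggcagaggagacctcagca
Gli2: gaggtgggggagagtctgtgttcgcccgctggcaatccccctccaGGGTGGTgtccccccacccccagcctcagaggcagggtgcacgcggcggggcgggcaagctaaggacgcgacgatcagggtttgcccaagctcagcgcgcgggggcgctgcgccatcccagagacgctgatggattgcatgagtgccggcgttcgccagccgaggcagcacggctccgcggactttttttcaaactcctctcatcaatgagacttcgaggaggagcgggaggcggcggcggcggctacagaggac

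The GLI consensus GACCACCCA, searched on both strands, was in 0 of the 6 windows and in 0.253% of all 32851 promoter windows of the same length. Its core ACCACCC, which lies inside the longer motif, was in 1 of the 6 windows, that of Gli2, at bases 46 to 52 on the strand opposite to the one printed, and in 4.61% of all windows. The Ptch1 and Hhip windows were 76.3% and 73.7% G and C. Sites outside these 300 bases were not searched.

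Shh (ENSMUSG00000002633, chromosome 5, 28661813 to 28672254, minus strand) encodes the ligand. It had 1585, 370 and 52 counts in the vehicle libraries and 233, 0 and 0 counts in the rebamipide libraries, or 31.7, 7.51 and 1.11 against 7.67, 0 and 0 normalised CPM. The first rebamipide library lay above the second and the third vehicle libraries, and within the vehicle group the highest value was 28.6 times the lowest. The means were 13.5 ± 16.2 CPM in vehicle and 2.56 ± 4.43 CPM in rebamipide (SD, n = 3 each). The fitted log2 fold change was -2.39 (SE 2.14, 95% interval -7.57 to 2.79, edgeR adjusted p = 0.429), so a difference was not detectable against this spread.

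Ptch1 (ENSMUSG00000021466, chromosome 13, 63656142 to 63721412, minus strand), the receptor and a target of the pathway, had 7953, 3934 and 1732 counts in vehicle and 1951, 768 and 992 in rebamipide. As normalised CPM these were 159.3, 79.9 and 37 against 64.2, 29.9 and 37.9. The first rebamipide library again lay above the third vehicle library, and the third rebamipide library lay beside it. The log2 fold change was -1.06 (SE 0.57, 95% interval -2.44 to 0.31, edgeR adjusted p = 0.208). Hhip (ENSMUSG00000064325, chromosome 8, 80692480 to 80784635, minus strand) encodes a membrane protein that binds and sequesters the ligand. Its counts were 1022, 256 and 61 in vehicle and 105, 0 and 6 in rebamipide, or 20.5, 5.2 and 1.3 against 3.46, 0 and 0.229 normalised CPM. Its log2 fold change was -2.86 (SE 1.72, 95% interval -7.02 to 1.30, edgeR adjusted p = 0.254).

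Smo (ENSMUSG00000001761, chromosome 6, 29735502 to 29761364, plus strand), the transducer, had the narrowest spread among vehicle libraries of all 8 genes. Its values were 94.4, 71 and 56.7 normalised CPM in vehicle and 51.1, 21.9 and 20 in rebamipide, from 4711, 3495 and 2652 counts against 1551, 563 and 523. Every rebamipide library lay below every vehicle library, although the first rebamipide library was close to the third vehicle library. The means were 74 ± 19 and 31 ± 17.4 CPM (SD, n = 3 each). The log2 fold change was -1.26 (SE 0.43, 95% interval -2.29 to -0.22, edgeR adjusted p = 0.0811). DESeq2 called it at a log2 fold change of -1.27 (adjusted p = 0.0345). DESeq2 did not call it without the first vehicle, the second rebamipide or the third rebamipide library (adjusted p = 0.12, 0.174 and 0.131). It was still called by DESeq2 when any other single library was left out.

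Sufu (ENSMUSG00000025231, chromosome 19, 46385335 to 46477243, plus strand), which holds GLI proteins in the cytoplasm, did not share this pattern. Its levels were 39.4, 25.7 and 22.9 CPM in vehicle and 32.3, 27.6 and 30.3 CPM in rebamipide, from 1967, 1266 and 1070 counts against 980, 707 and 793. The rebamipide libraries lay inside the range of the vehicle libraries. Its log2 fold change was 0.03 (SE 0.26, 95% interval -0.59 to 0.66, edgeR adjusted p = 0.931), and library totals alone as the scaling turned it to -0.58.

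Gli1 (ENSMUSG00000025407, chromosome 10, 127165751 to 127177843, minus strand), an activator that is also the most used readout of the pathway, had 1720, 773 and 271 counts in vehicle and 317, 31 and 23 in rebamipide. Its normalised values were 34.5, 15.7 and 5.79 against 10.4, 1.21 and 0.878 CPM. The second and the third rebamipide libraries lay below all vehicle libraries and the first lay between the second and the third of them. The log2 fold change was -2.15 (SE 1.13, 95% interval -4.89 to 0.58, edgeR adjusted p = 0.202). Gli2 (ENSMUSG00000048402, chromosome 1, 118761862 to 118981349, minus strand), the main activator, had 1531, 899 and 373 counts in vehicle and 374, 67 and 60 in rebamipide, or 30.7, 18.3 and 7.98 against 12.3, 2.61 and 2.29 CPM. It stood in the same order across the 6 libraries as Gli1, with a log2 fold change of -1.72 (SE 0.82, 95% interval -3.72 to 0.27, edgeR adjusted p = 0.169).

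Gli3 (ENSMUSG00000021318, chromosome 13, 15637820 to 15904611, plus strand), the main repressor, had 4007, 1336 and 697 counts in vehicle and 311, 112 and 86 in rebamipide. As normalised CPM these were 80.3, 27.1 and 14.9 against 10.2, 4.36 and 3.28, so no rebamipide library reached the lowest vehicle library. The means were 40.8 ± 34.7 and 5.96 ± 3.74 CPM (SD, n = 3 each). Its log2 fold change was -2.77 (SE 0.77, 95% interval -4.63 to -0.91, edgeR adjusted p = 0.0507), and DESeq2 called it at -2.78 (adjusted p = 0.00137).

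**Figure D1:**
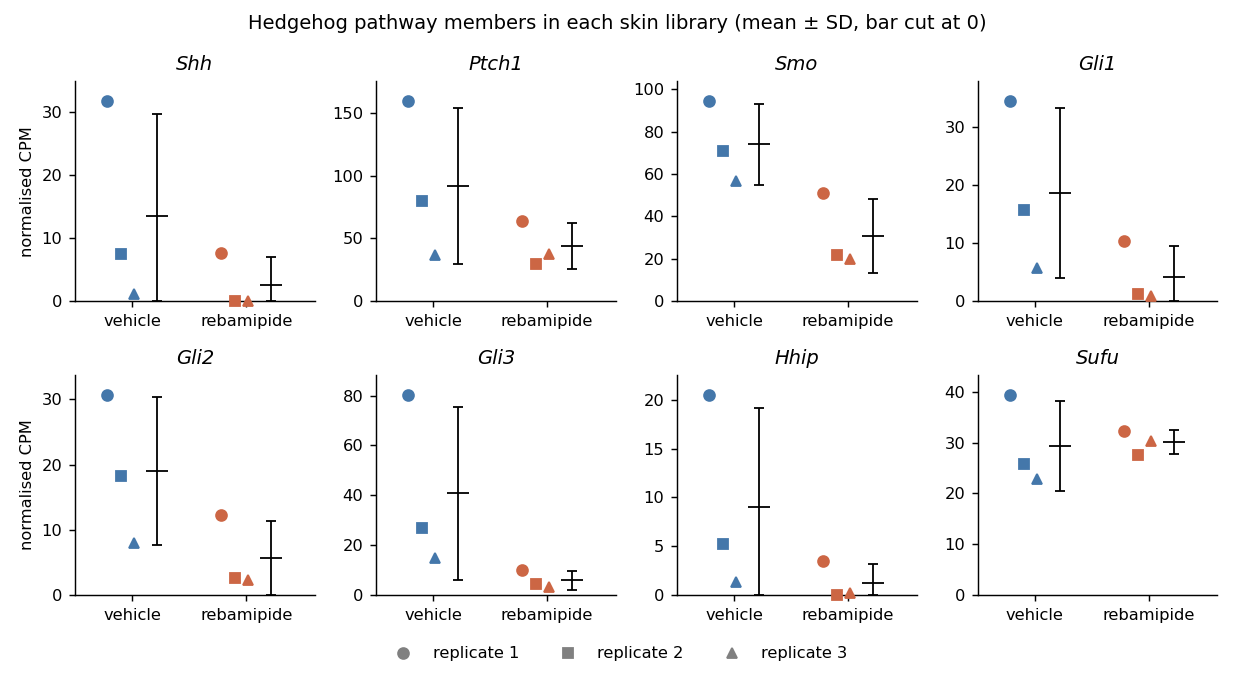
Normalised CPM (vertical axis) of the 8 Hedgehog pathway genes in the vehicle and rebamipide libraries, with 1 point per mouse, marker shape for the replicate number and black bars for the mean ± SD, cut at 0. Smo and Gli3 are the genes without overlap between groups, Sufu lies at about the same level in both, and the first replicate is the highest of its group for 8 of 8 genes.

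These counts were read against all genes tested. edgeR called 6.51% of the 14875 genes lower and 14.1% higher in rebamipide, against 0 of the 8 in each direction. DESeq2 called 15.1% of its genes lower, against 2 of the 8, and 15.8% higher, against 0. At an unadjusted p-value under 0.05 edgeR had 18.8% lower, against Gli3 and Smo, and 20.9% higher, against 0 of the 8. Without a test, 24% of all genes had every rebamipide library below every vehicle library, and 2 of the 8 is near that share. With the cut-offs used by the study (p under 0.05 before adjustment and a log2 change of more than 1 in size), 14.5% of all genes were lower in edgeR and, of the 8, Gli3 and Smo. The 8 had a median log2 fold change of -1.94, beside -0.17 over all genes. Of the marker lists described below, growing follicle (-4.71), cell cycle (-2.63) and basal keratinocyte (-2.37) had lower medians. So did suprabasal keratinocyte (-2.29), bulge and hair germ (-2.25) and dermal papilla (-2.06). The medians of the other marker lists ran from -1.76 to 3.99.

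The edgeR calls depended on single libraries. Without the first rebamipide library, the highest of its group for all 8 genes, edgeR called 4 of the 8, namely Smo (log2 fold change -1.82, adjusted p = 0.0134), Gli1 (-4.15, adjusted p = 0.0319), Gli2 (-2.95, adjusted p = 0.0328) and Gli3 (-3.41, adjusted p = 0.0432). Calls over all genes went up there as well, from 968 to 1971 lower and from 2093 to 2810 higher. Without the third vehicle library it called Gli3 (-3.14, adjusted p = 0.0447, edgeR), with 833 of all genes lower and 1727 higher. Without the third rebamipide library, the one without Krt14, edgeR called 0 of the 8, and the log2 fold change was -2.47 for Gli3 and -1.01 for Smo. Calls over all genes went down there as well, to 382 lower and 1012 higher. Without the first vehicle library the log2 fold changes were -0.70 for Shh, -0.41 for Ptch1, -1.36 for Hhip, -1.33 for Gli1, -1.17 for Gli2 and -1.81 for Gli3 (adjusted p = 0.111 for Gli3, edgeR). Over the 6 fits that each left out 1 library, Hhip ran from -6.24 to -1.36 and Shh from -12.06 to -0.70. Both lower ends came without the first rebamipide library, where Shh was left with 0 counts in rebamipide and Hhip with 0 and 6, so the fitted values depend on the prior count. Over all genes, edgeR called 0 without the second vehicle library, with 4116 at an unadjusted p-value under 0.05, and 1 without the second rebamipide library, with 4062.

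**Figure D2:**
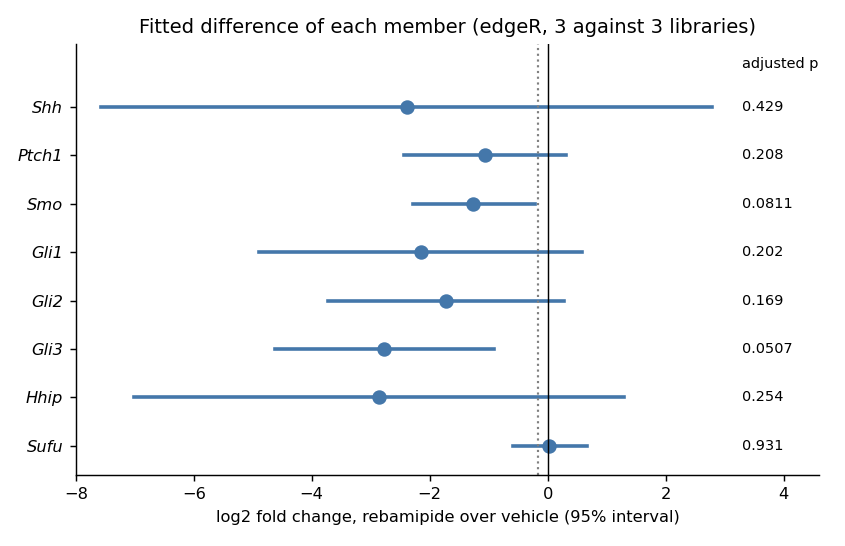
Fitted log2 fold change of rebamipide over vehicle (horizontal axis) for each of the 8 genes in edgeR, with bars for the 95% interval and adjusted p-values at the right. The solid line marks 0, the dotted line the median of all genes tested at -0.17, and the intervals of Smo and Gli3 are the ones that do not reach 0.

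Levels were compared between genes by the deposited FPKM, which are per length. In vehicle skin the order of mean FPKM was Smo (16.4 ± 4.68), Ptch1 (8.15 ± 5.69), Shh (5.99 ± 7.28), Gli3 (5.35 ± 4.69), Sufu (4.75 ± 1.57), Gli1 (4.7 ± 3.77), Gli2 (3.46 ± 2.15) and Hhip (1.25 ± 1.43), each as mean ± SD over 3 libraries. From Ptch1 to Gli2 each pair of neighbours differed by less than the SD of either gene, and Smo overlapped with Ptch1 and Gli2 with Hhip across libraries. In rebamipide skin the order was Smo (4.68 ± 3.26), Sufu (3.18 ± 0.637), Ptch1 (2.6 ± 1.41), Shh (0.834 ± 1.44), Gli1 (0.751 ± 1.03), Gli2 (0.733 ± 0.807), Gli3 (0.53 ± 0.402) and Hhip (0.124 ± 0.199) FPKM. Smo had the highest FPKM of the 8 in 5 of the 6 libraries and Sufu in the third rebamipide library. Gli3 was above Gli2 in all 3 vehicle libraries, with 10.7, 3.49 and 1.88 against 5.7, 3.28 and 1.4 FPKM. In the first rebamipide library that order was turned, with 0.992 FPKM for Gli3 and 1.66 FPKM for Gli2, and in the second and the third the 2 genes were at 0.34 and 0.258 against 0.284 and 0.252 FPKM.

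Within groups the 8 genes stood in a similar order from mouse to mouse. The first vehicle library was the highest and the third the lowest of the vehicle group for 8 of 8 genes, and the first rebamipide library was the highest of its group for 8 of 8. In the vehicle group the highest value was 15.7 times the lowest for Hhip, 5.95 times for Gli1, 5.39 times for Gli3, 4.3 times for Ptch1, 3.85 times for Gli2, 1.72 times for Sufu and 1.66 times for Smo. In the rebamipide group it was at least 65.6 times for Shh and at least 29.6 times for Hhip, taking 3 counts for the library at 0, and 11.9 times for Gli1. Sufu, at 1.17 times, varied least there. As a description over the same 6 libraries, between which cell type markers differed too, Pearson's r of log2 CPM was 1.00 between Gli1 and Gli2, 0.99 between Gli1 and Shh, and 0.22 to 0.68 between Sufu and the other 7.

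Some ratios within a library, which do not depend on the scaling between libraries, were computed after the values had been seen. The log2 ratio of Gli3 to Smo counts was -0.23, -1.39 and -1.92 in vehicle and -2.31, -2.32 and -2.59 in rebamipide, without overlap. Against the fibroblast gene Pdgfra neither gene was separated between the groups. The log2 ratio of Gli3 to Pdgfra was 0.31, -2.22 and -3.33 in vehicle and -3.18, -3.75 and -3.80 in rebamipide, and that of Smo to Pdgfra was 0.54, -0.83 and -1.41 against -0.87, -1.43 and -1.21. That of Gli1 to Gli2 was 0.17, -0.22 and -0.46 in vehicle and -0.24, -1.08 and -1.33 in rebamipide, with the first rebamipide library inside the vehicle range. That of Ptch1 to Smo was 0.76, 0.17 and -0.61 against 0.33, 0.45 and 0.92, with overlap.

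Genes with the most similar profiles were then ranked, as a description over the same 6 libraries and with no test. Over 13377 genes with a mean of at least 50 counts, those most like Shh by Pearson's r of log2 CPM over the 6 libraries were Hhat (0.9949), which attaches the lipid that SHH needs for full activity, Edn3 (0.9939), Haus8 (0.9933), Dbn1 (0.9916) and Trpm4 (0.9913). Those most like Gli1 were Gli2 (0.9989), Msx2 (0.9979), a homeobox gene of the hair matrix, Cited4 (0.9967), Gm49425 (0.9960) and Hhat (0.9957). Those most like Smo were Cdh11 (0.9997), a cadherin of mesenchymal cells, Cdca7l (0.9980), Src (0.9980), Fancd2 (0.9978) and Mical1 (0.9977). Msx2 had 151.5, 44.2 and 3.06 CPM in vehicle and 10.9, 0.0779 and 0 CPM in rebamipide, the order seen for Gli1. Cdh11 had 37.7, 21.3 and 14.7 CPM against 11.8, 2.46 and 2.21 CPM.

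Several cell type marker lists also differed between the libraries, some in the order of the 8 genes and some not, and their part in the differences was not tested. The counts of calls in this and the next paragraph stand beside these shares of all genes. edgeR called 6.51% lower and 14.1% higher, or 18.8% and 20.9% at an unadjusted p-value under 0.05. DESeq2 called 15.1% lower and 15.8% higher. The 15 markers of growing follicles that the table holds summed to 27753.8, 14985.5 and 315.2 CPM in vehicle and to 1247.6, 4.99 and 0.611 CPM in rebamipide, the same order of libraries as Gli1, with 7 and 12 of them at 0 in the second and the third rebamipide libraries. edgeR called 0 of the 15, with 3 lower at an unadjusted p-value under 0.05, and DESeq2 called 2 lower. The 10 markers of bulge and hair germ summed to 755.9 to 841 CPM in vehicle and 111.9 to 506.7 CPM in rebamipide. The 10 dermal papilla markers summed to 109.9 to 196.2 CPM and 47 to 80.4 CPM, and edgeR called 2 lower (Fgf7 and Prdm1) and 1 higher (Sox18, which endothelial cells also express). The 7 basal keratinocyte markers were at 2309.2 to 3970.5 CPM in vehicle and 224.1 to 1197.1 CPM in rebamipide. Among vehicle mice they were lowest in the first library, where the 8 pathway genes were highest. edgeR called 0 of the bulge and basal keratinocyte markers, with 2 and 3 lower at an unadjusted p-value under 0.05, and DESeq2 called 2 and 3 lower.

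Cell cycle genes, 8 in number, summed to 654.5, 319.5 and 198.3 CPM in vehicle and 143.9, 67.7 and 42.2 CPM in rebamipide, without overlap, and edgeR called 1 of them lower (Bub1), with 4 lower at an unadjusted p-value under 0.05 and 5 lower by DESeq2. The 8 fibroblast markers summed to 12325.9, 14450 and 18796.5 CPM against 15815.4, 3715.7 and 1973.7 CPM, and edgeR called 0 of them (2 lower at an unadjusted p-value under 0.05, and 2 by DESeq2). Pdgfra, a fibroblast receptor, had 64.9, 126.6 and 150.6 CPM in vehicle, an order opposite to that of the members. The sum of the 8 adipocyte markers was 1532.7 to 4575.5 CPM in vehicle and 10469.7 to 17993.8 CPM in rebamipide, with Fabp4 the largest term in rebamipide. edgeR called 5 of the 8 higher, and Lep and Retn had log2 fold changes of -0.53 and -0.23 with overlap between groups. The 8 brown adipocyte markers summed to 213.7 to 384.3 CPM in vehicle and 5039.9 to 12960 CPM in rebamipide, and edgeR called 6 of them higher. Their defining gene Ucp1 was at 0 counts in every vehicle library. Elovl3, which is also in the sebaceous gland list, went the other way without overlap. It had 176, 128.6 and 238.4 CPM in vehicle and 82.3, 83.1 and 33.3 CPM in rebamipide (log2 fold change -1.45, edgeR adjusted p = 0.0575). The 6 endothelial markers summed to 209.3 to 496.8 CPM and 1012.3 to 1459.3 CPM, and edgeR called 3 higher. Of the 8 sebaceous gland markers edgeR called Scd1 higher, which is also abundant in adipocytes and made up most of their sum, 2908.1 to 13035.7 CPM in vehicle and 39834.6 to 109979.9 CPM in rebamipide. The median log2 fold change of that list was -1.76, and DESeq2 called 4 lower and 2 higher. In that list 5 genes had every rebamipide library below every vehicle library, beside 24% of all genes. The sums of the skeletal muscle, smooth muscle, Schwann cell, leukocyte and suprabasal keratinocyte lists overlapped between the groups, and edgeR called 0 of their genes (1 higher and 2 lower at an unadjusted p-value under 0.05, and 1 lower by DESeq2). Some of these sums still varied widely between libraries. The suprabasal sum was 1270.3, 4569.9 and 5419.3 CPM in vehicle and 1381.2, 895.5 and 5.38 CPM in rebamipide. That of skeletal muscle was 4847.6, 21050 and 24017 CPM against 30844.4, 6656.9 and 245.9 CPM.

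**Figure D3:**
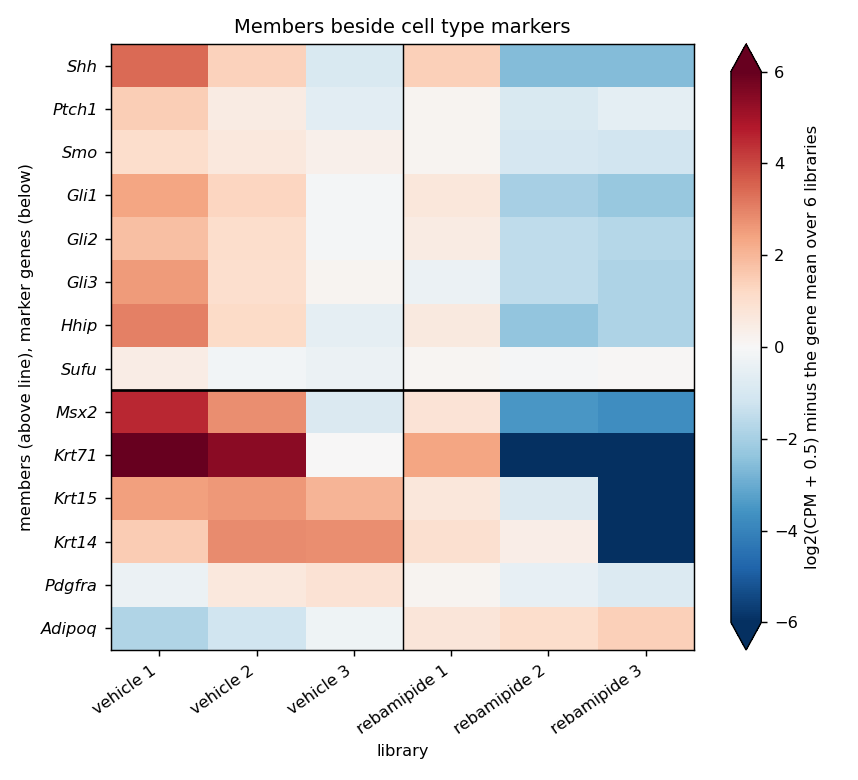
Level of the 8 genes (above the line) and of 6 marker genes (below) in each library, as log2(CPM + 0.5) minus the mean of the gene over the 6 libraries, with colours capped at 6 in either direction. Gli1 and Gli2 share their order of libraries with the hair matrix gene Msx2, whereas Krt14 and Pdgfra were lowest among vehicle mice in the first library and Adipoq was highest in the rebamipide libraries.

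The rest of the pathway was read through 67 further genes in 5 lists by role, of which 63 were tested. edgeR called 5 of the 63 lower, beside the 6.51% of all genes, and 3 higher, beside the 14.1%, and DESeq2 called 17 lower and 4 higher, beside 15.1% and 15.8% of all its genes. Their median log2 fold change was -0.72, against -0.17 for all genes. With edgeR and without the second vehicle library or the second rebamipide library 0 of them were called in either direction, and without the first rebamipide library 16 were called lower and 5 higher, where 1971 of all genes were lower and 2810 higher.

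Of the 9 genes for ligands and ligand release, 8 were tested and edgeR called 0 (also 0 at an unadjusted p-value under 0.05). Over all genes edgeR called 6.51% lower and 14.1% higher. DESeq2 called 2 of the list lower, beside 15.1% of all its genes, and the median log2 fold change was -0.94. Ihh was within 0 to 4 counts in every library, and Dhh, the ligand of Schwann cells, was at 1.76, 3.15 and 4.96 CPM in vehicle and 3.29, 2.07 and 3.32 CPM in rebamipide. Both were named after their values were seen. Scube2, which carries SHH away from the cell that made it, had 15, 6.54 and 3.36 CPM in vehicle and 2.17, 1.01 and 0 CPM in rebamipide, without overlap (log2 fold change -2.96 ± 1.32 SE, edgeR adjusted p = 0.148). Its relative Scube1 had a log2 fold change of -2.43 with overlap between groups (adjusted p = 0.15, edgeR). Gpc3, a proteoglycan that competes for ligand, was the most abundant of this list by FPKM at 44.9 ± 2.06 in vehicle and 13.8 ± 14.9 in rebamipide (log2 fold change -1.20, adjusted p = 0.215, edgeR). Disp1, which exports the ligand, was at 0.17 and Hhat at -0.69 on the log2 scale.

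edgeR called 0 of the 4 co-receptor genes tested. At an unadjusted p-value under 0.05 edgeR had 1, Boc, lower, beside 18.8% of all genes. DESeq2 called Boc lower, beside 15.1% of all its genes. Boc had 31.1, 33.4 and 27.5 CPM in vehicle and 22.2, 10.8 and 10.4 CPM in rebamipide, without overlap (log2 fold change -1.08 ± 0.35 SE, edgeR adjusted p = 0.0721). Gas1 and Cdon, which also help SHH bind PTCH1, had log2 fold changes of -0.05 and -0.48 with overlap.

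Among the 16 regulators of GLI proteins edgeR called 2 higher, beside 14.1% of all genes, and 0 lower. At an unadjusted p-value under 0.05 3 were higher and 3 lower, beside 20.9% and 18.8% of all genes. DESeq2 called 2 higher and 2 lower, beside 15.8% and 15.1% of all its genes, and the median log2 fold change was -0.12. Prkaca, the catalytic subunit of protein kinase A, which phosphorylates GLI proteins for cutting and also drives lipolysis in adipocytes, had 88.2, 97.3 and 101.6 CPM in vehicle and 353.8, 550.4 and 602.6 CPM in rebamipide (log2 fold change 2.39 ± 0.28 SE, edgeR adjusted p = 0.00939). Its order of libraries was that of Adipoq, the adipocyte hormone gene, which had 187, 285.7 and 543.3 CPM in vehicle and 1076, 1367.7 and 1772.9 CPM in rebamipide. Btrc, part of the ubiquitin ligase that leads phosphorylated GLI proteins to the proteasome, rose from 11.6, 12.8 and 15 CPM to 22.4, 21.6 and 25.6 CPM (log2 fold change 0.82, adjusted p = 0.0422, edgeR). The casein kinase gene Csnk1a1 did not overlap between groups (log2 fold change -0.77, edgeR adjusted p = 0.0678). Its relative Csnk1e was at 96.3, 68.2 and 41.6 CPM in vehicle and 36.7, 32.8 and 33.4 CPM in rebamipide (edgeR adjusted p = 0.0692). Prkar1a, the regulatory subunit of protein kinase A, was at 0.51 (adjusted p = 0.15, edgeR).

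The primary cilium is where the signal passes from SMO to the GLI proteins. Of its 21 genes, 9 had every rebamipide library below every vehicle library, beside 24% of all genes, and 2 had every one above, beside 24.5%. edgeR called 1 of the 21 lower and 0 higher, beside 6.51% and 14.1% of all genes. At an unadjusted p-value under 0.05 7 were lower and 2 higher, beside 18.8% and 20.9%, DESeq2 called 5 lower and 1 higher, beside 15.1% and 15.8%, and the median log2 fold change was -0.62. Arl13b, a small GTPase of the ciliary membrane, fell from 37.5, 18.9 and 25.8 CPM to 6.26, 8.89 and 7.14 CPM (log2 fold change -1.88 ± 0.33 SE, edgeR adjusted p = 0.0158). Evc2, a ciliary partner of SMO, and Rab23, a negative regulator of the pathway, had log2 fold changes of -1.25 and -0.82 without overlap (adjusted p = 0.073 and 0.0665, edgeR). Ift172, a subunit of the transport complex within the cilium, was at 0.65 (adjusted p = 0.0755, edgeR), and Ift27 was at 0.02.

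The 16 target genes, of which 14 were tested, had 4 lower and 1 higher in edgeR (beside 6.51% and 14.1% of all genes), 7 lower and 1 higher in DESeq2 (beside 15.1% and 15.8%), and a median log2 fold change of -1.84. Ccnd2, a cyclin of the G1 phase, fell from 457.4, 224.9 and 180.4 CPM to 111.1, 67.5 and 51.7 CPM (log2 fold change -1.90 ± 0.47 SE, edgeR adjusted p = 0.0377). Bcl2, an inhibitor of cell death, fell from 18.5, 14.3 and 13.3 CPM to 5.04, 5.65 and 5.15 CPM, with little spread in either group (log2 fold change -1.54 ± 0.25 SE, edgeR adjusted p = 0.0139). Foxc1, a forkhead factor of follicle stem cells, fell from 44, 36.7 and 21.7 CPM to 8.76, 6 and 2.14 CPM (log2 fold change -2.60, adjusted p = 0.0283, edgeR). Bmp4, a signal of the dermal papilla, fell by 2.33 on the log2 scale (adjusted p = 0.0448, edgeR) and was named after its value was seen. Hsd11b1, an enzyme that regenerates active glucocorticoid and is abundant in adipose tissue, rose from 14.5, 22.2 and 47.5 CPM to 122.8, 163.2 and 222 CPM (log2 fold change 2.59 ± 0.50 SE, edgeR adjusted p = 0.0207). Igfbp6, the most abundant target by FPKM, was at -0.98 with overlap (adjusted p = 0.274, edgeR). These genes have other inputs besides GLI proteins, and the part of the marker genes above in their differences was not tested.

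**Figure D4:**
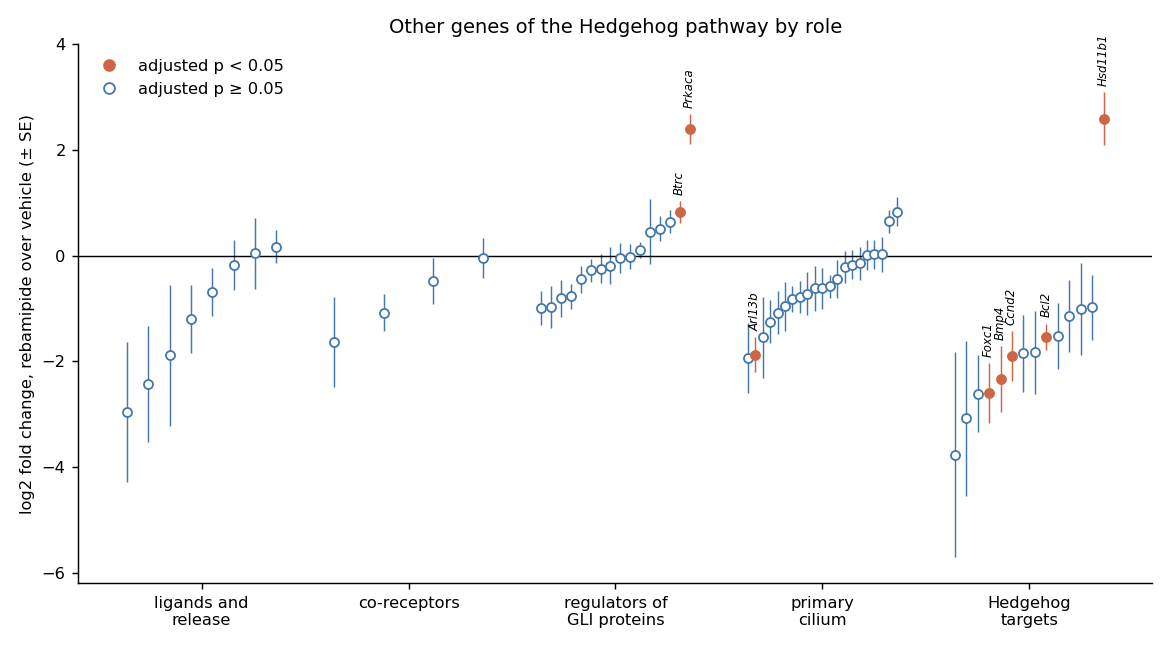
Fitted log2 fold change of rebamipide over vehicle (vertical axis, bars for the standard error) for the 63 tested pathway genes outside the 8, sorted within 5 lists by role, with filled points for genes called by edgeR at an adjusted p-value under 0.05. The 5 genes called lower are Arl13b and 4 targets, and the 3 called higher are Prkaca, Btrc and Hsd11b1.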

How the data were processed

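RNA was measured in dorsal skin of 3 vehicle-treated and 3 rebamipide-treated mice, grouped by the treatment given in the labels. The authors deposited 1 table with raw read counts per gene, whole numbers without normalisation, and FPKM. The deposited FPKM were counts over gene length and library total, to a relative gap of at most 5.1e-14. The submitters' processing notes name fastp 0.22.0, HISAT2 2.1.0, HTSeq 0.9.1 and GRCm39, without their roles, and the study's methods name DESeq2. The strand setting of the counting is not given in the sources used here, so reads of overlapping antisense genes cannot be told apart. Gene positions are those of the table, and promoter windows are of GRCm38.p6. They were not mixed. 51 rows without a symbol were kept.

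The groups were set against each other with edgeR 4.0.16 in R 4.3.3 (TMM, filterByExpr, quasi-likelihood test, Benjamini-Hochberg adjustment over 14875 genes). DESeq2 1.42.0, limma 3.58.1 (voom, and on log2(FPKM + 1)), other normalisations and filters, a replicate block and each library left out in turn were alternatives. The tools were also run on simulated data with a dispersion (spread between libraries) of 0.1 and 200 genes changed 4-fold. At that setting edgeR recovered 95%, DESeq2 94% and limma-voom 93.5%, with 6, 25 and 10 false calls. Recovery at the spread of the real libraries was not tested. Library totals were 32709801 to 39915276 counts. Libraries of a group differed well beyond counting error (chi-square over degrees of freedom, 79.08 to 713.6). Nothing states how cages or days were shared, and p-values measure the spread between these mice only.

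The 8 genes, the 5 pathway lists and the 14 cell type and 1 cell cycle lists were chosen with earlier results of these data known, and no test was run over a list. Of each pathway list the 4 genes with the smallest p and the 2 with the highest FPKM were named, besides those stated, and 1 gene under this rule is not reported here. Where a library was at 0 or a group near it, the fitted fold change depends on the prior count.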

Additional observations from a re-analysis of the deposited data

How the results depend on the processing

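Under the 27 alternatives the log2 fold changes of Shh, Ptch1, Smo, Gli1, Gli2, Gli3 and Hhip kept their negative sign in all, and that of Sufu was negative in 10. Gli3 was called in 14 of the 27, Smo in 9, Gli1 in 3, Gli2 in 2, Shh, Ptch1 and Hhip in 1 each and Sufu in 0. Of the 8 genes 0 were called lower by edgeR, against 2 by DESeq2, 1 with RLE normalisation, 2 with total counts alone, 2 with limma on log2(FPKM + 1), 2 at the study's thresholds and 0 to 6 with 1 library left out in edgeR, DESeq2 or limma-voom. The 6 came from DESeq2 without the first rebamipide library, and edgeR with 1 library left out called 0 to 4. Of the other pathway genes 5 were called lower, against 17 by DESeq2, 8 by limma-voom, 23 with total counts alone, 30 with limma on log2(FPKM + 1), 13 at the study's thresholds and 0 to 28 with 1 library left out in any of these tools, and 3 were called higher, against 0 to 7 with 1 library left out. The 28 and the 7 came from DESeq2 without the first rebamipide library, and edgeR with 1 library left out reached 16 lower and 5 higher. Of all genes 968 were called lower, against 2535 by DESeq2, 3752 with total counts alone, 4809 with limma on log2(FPKM + 1), 2161 at the study's thresholds and 0 to 4225 with 1 library left out in any of these tools, and 2093 higher, against 1258 with total counts alone and 0 to 3608 with 1 library left out. Both upper limits came from DESeq2 without the first rebamipide library, and edgeR with 1 library left out reached 1971 lower and 2810 higher. Both lower limits of 0 came from edgeR, without the second vehicle library (smallest adjusted p = 0.0747) and, for lower calls, also without the second rebamipide library. The cause of these shifts was not tested.

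Whether the replicate numbers paired the mice is not stated. Over all genes tested, same-numbered libraries deviated from their group means with correlations of -0.0164, -0.0382 and 0.00316. Differently numbered libraries ranged from -0.323 to 0.379. With 3 libraries per group these correlations cannot decide whether mice shared a cage or a day. With the replicate block edgeR called 3 of the 8 genes lower, Gli3 (adjusted p = 0.0187), Smo (0.0409) and Gli1 (0.0437), and 8 of the other pathway genes. Over all genes it called 855 lower and 1432 higher there. With 3 mice per group an exact permutation test of 1 gene cannot go below p = 0.1, and for libraries at 0 counts of Shh or Hhip depth allows up to 3 counts.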
